A study of Mus musculus with 4 samples.

Results

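The 8 genes described here encode components, regulators and a receptor-like protein of the complement system, and were read in mouse blood monocytes and neutrophils. They are C3, Cfp, Cfb, Cr1l, Cd55, Cd59a, Serping1 and Cd93, taken by symbol from the 43346 Ensembl genes listed in each gene table. The tables hold ribosome-depleted total RNA-seq of peripheral blood from adult C57BL6 mice, with 2 monocyte and 2 neutrophil libraries. The study gives the mice of its primary cells as young males. No treatment or genetic change is given for any library, so cell type is what the groups compare. Per the labels, the monocytes were sorted as Gr-1+Mac-1+ cells from the mononuclear layer of a Ficoll gradient. The study's sample list instead gives their gate as Ly6g- and CD11b+ (Mac-1), so the sources differ on the sort. The neutrophils came from the pellet of the same kind of gradient after red cells were lysed and were not sorted, so cell type and isolation cannot be told apart. The study describes its replicates as biological. It gives as examples cells taken on separate days from separate groups of mice, or separately processed sorter aliquots from the same group. The labels do not say which applies here, and the aliquot example does not describe the neutrophils, which were not sorted. Nothing in the labels ties the libraries of a cell type to separate mice, so p-values measure only the spread between these libraries, which may be technical.

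Complement is a cascade of plasma proteins that tags microbes for phagocytes, releases peptides that attract leukocytes, and can pierce membranes. The classical, lectin and alternative routes all cleave C3, and the alternative route, built from C3b, factor B and properdin, amplifies the deposits that the others start. Host cells carry membrane proteins that break up the C3 convertases or block the final pore, and myeloid cells carry receptors for the fragments.

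The libraries held 20549572 to 26076261 expected counts, the read numbers estimated per gene by RSEM, and levels below are CPM, the counts scaled to a common library total. A floor of 3 counts corresponds to 0.115 to 0.146 CPM. Monocyte markers summed to 12897 and 12635 CPM in the monocyte libraries against 1576 and 1624 in the neutrophil libraries, with 8 of 9 higher in monocytes by edgeR and Ly6c2 not called. Neutrophil markers summed to 329 and 357 CPM against 7644 and 7820, with 9 of 10 higher in neutrophils and Retnlg the opposite. Camp and Ly6g were at 0 in both monocyte libraries, and Ly6g is named in the gate of the study's sample list. Markers of other cells moved too. All 7 NK cell markers were higher in monocytes (2359.6 and 2337 against 25.4 and 24.9 CPM in sum), and all 7 B cell markers were higher in neutrophils (337 and 407 against 2439 and 2379.7 CPM). T cell markers summed to 22.7 and 23.4 CPM in monocytes and 97.2 and 99.9 in neutrophils (5 of 7 higher in neutrophils). Platelet markers summed to 44.1 and 44.4 against 74.0 and 81.8 CPM (3 of 6 higher in neutrophils, Gp9 at 0 in both monocyte libraries). Red cell markers summed to 6216 and 6625 against 8086 and 8657 CPM (4 of 6 higher in neutrophils, 1 in monocytes). Eosinophil and basophil markers summed to 96.9 and 101 against 28.3 and 32.1 CPM (3 of 6 higher in monocytes, Mcpt8 at 0 in both neutrophil libraries). The part of these cells in the results below was not tested.

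Of the 8 complement genes, 4 were higher in neutrophils (Cd55, Cfp, Cd93 and C3), none was higher in monocytes, 3 were not called (Cr1l, Cfb and Cd59a) and Serping1 had no counts and was not tested. The call for C3 was lost once the length of its transcripts was taken into account. Calls are from edgeR's quasi-likelihood test at a Benjamini-Hochberg adjusted p under 0.05 over 14309 genes, of which 21.8% were higher in neutrophils, 20.8% higher in monocytes and 42.6% called in either direction. No member was higher in monocytes at an unadjusted p under 0.05 either, and DESeq2 and limma also gave 0. The median log2 fold change, monocyte over neutrophil, was -0.56 over the 7 tested members and -0.065 over all genes tested. The libraries of the cell types did not overlap for 5 of the 7 tested members, and for 75.1% of all genes tested, so that count alone sets the members apart in no way. In bulk RNA, fewer cells of a type and less RNA per cell cannot be told apart.

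**Figure D1:**
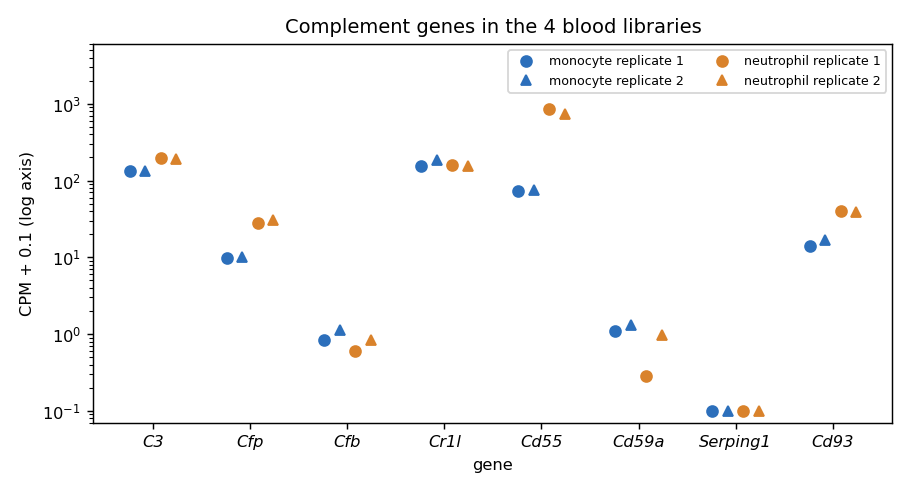
Level of each complement gene in the 4 libraries, as CPM plus 0.1 on a log axis, with blue for monocyte and orange for neutrophil libraries and a symbol for each replicate. Cd55, Cfp, Cd93 and C3 stand apart by cell type, Cr1l lies between 153 and 183 CPM in all 4 libraries, and Serping1 has 0 counts in each.

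Of the 4 regulators among the 8 genes, Cd55 alone was called with all 4 libraries in the fit. It encodes decay-accelerating factor, a lipid-anchored surface protein that dissociates the C3 and C5 convertases. It was read at 72.7 and 74.2 CPM in monocytes and at 845 and 738 CPM in neutrophils. The lowest neutrophil library was thus far above both monocyte libraries, and the monocyte libraries differed little from each other. The means were 73.4 ± 1.05 and 791 ± 75.3 CPM (SD, n = 2 each), a 10.8-fold difference with a log2 fold change of -3.43 ± 0.10 (SE; edgeR adjusted p = 2.64e-05). Without any 1 library the value lay between -3.52 and -3.33. The B cell markers, at 2439 and 2379.7 CPM in neutrophils against 337 and 407, moved with Cd55, and their part in its result was not tested.

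Cd55 lies on the reverse strand of chromosome 1 (130439027 to 130462744, mm10), with its near copy Cd55b 16017 bases away. Cd55b was listed at 0 counts in both monocyte libraries and at 17.8 and 11.7 in neutrophils. Over a floor of 3 counts in the group, Cd55b was at least 12.0-fold higher in neutrophils (edgeR adjusted p = 0.0242). That call was lost without either neutrophil library and without the filter on low counts. RSEM's own coefficient of variation for the assignment of the Cd55 reads was at most 0.0259% in any library. For the few Cd55b counts it was larger, at 5.66% and 7.89% in the neutrophil libraries. Whether reads of Cd55 were counted as Cd55b was not tested otherwise. Cd55 also shares 169 bases with the antisense gene Gm16083, which held 0 counts in both monocyte libraries and 20 and 33 in the neutrophil libraries. Whether RSEM was run with strand was not given in the sources used here. The antisense counts are few beside the 18276 and 15170.3 of Cd55.

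Cr1l, the mouse regulator also called Crry, limits C3 convertases on most mouse cells and helps factor I to cleave C3b. In contrast to Cd55, it was read at similar levels in all libraries, 153 and 183 CPM in monocytes and 161 and 153 in neutrophils. In CPM the groups overlapped. The means were 168 ± 21.2 and 157 ± 6.06 CPM (SD, n = 2 each), and the log2 fold change was 0.10 ± 0.11 (SE; edgeR adjusted p = 0.524). Its direction was not stable: it was -0.039 without monocyte replicate 2, and 0.23 without monocyte replicate 1, where it was called (edgeR adjusted p = 0.0488, against 0.143 to 0.834 under the other alternatives). Cr1l lies on the reverse strand of chromosome 1 (195097382 to 195131586), 5132 bases from Cd46 and 5224 bases from Cr2. These neighbors are complement genes too, and their values are given below.

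Cd59a encodes the glycolipid-anchored protein that keeps C9 from completing the membrane pore. Its counts were low, 26 and 31 in monocytes and 4 and 18 in neutrophils, or 0.997 and 1.21 against 0.185 and 0.876 CPM. The groups did not overlap, but the neutrophil libraries differed more from each other than the nearest libraries of the groups did. The log2 fold change was 1.05 ± 1.06 (SE; edgeR adjusted p = 0.475), and moved from 0.33 without neutrophil replicate 1 to 2.55 without neutrophil replicate 2. Cd59a lies on the forward strand of chromosome 2 (104095801 to 104115354), 4613 bases from Cd59b, which had 0 and 8 counts in monocytes and 0 and 20 in neutrophils. Serping1 encodes C1 inhibitor, the plasma serpin that blocks the proteases of the classical and lectin routes (chromosome 2, 84765387 to 84775444, reverse strand). With 0 counts in every library it was not detectable at this depth, which allows up to 0.115 to 0.146 CPM by counting error alone.

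Among the components, Cfp was clearly higher in neutrophils. It encodes properdin, the plasma protein that stabilizes the alternative route convertase and is known to be stored in neutrophil granules. Its level was 9.70 and 10.1 CPM in monocytes and 27.5 and 30.3 CPM in neutrophils. Libraries of a cell type lay close together and the groups were well apart. The means of 9.92 ± 0.31 and 28.9 ± 1.96 CPM (SD, n = 2 each) differed 2.91-fold, with a log2 fold change of -1.54 ± 0.17 (SE; edgeR adjusted p = 0.00139). Cfp is on the reverse strand of chromosome X (20925454 to 20931555).

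C3, the central protein that all routes cleave, was read at 133 and 131 CPM in monocytes and 199 and 190.2 CPM in neutrophils. Both neutrophil libraries were above both monocyte libraries, and the means were 132 ± 1.13 and 195 ± 6.46 CPM (SD, n = 2 each). The difference was 1.48-fold, with a log2 fold change of -0.56 ± 0.08 (SE; edgeR adjusted p = 0.00331). C3 is on the reverse strand of chromosome 17 (57203970 to 57228136). A longer transcript gives more reads, and RSEM placed the C3 reads on longer transcripts in neutrophils, with a mean length weighted by abundance of 3264.5 and 3099 bases against 2478 and 2127 in monocytes. The annotation holds 4 C3 transcripts, of 5136, 662, 554 and 315 bases. Per kilobase of effective length, C3 stood at 57.6 and 66.7 CPM per kb in monocytes and 64.3 and 64.7 in neutrophils, and these groups overlapped. With the effective length as an offset the log2 fold change was -0.054 (edgeR adjusted p = 0.763), and limma on log2(TPM + 1) gave -0.028 (adjusted p = 0.873). Under the other alternatives C3 was called, with edgeR or DESeq2 adjusted p from 4.61e-07 to 0.0397. C3 thus had more reads in neutrophils, but no difference in transcript level was shown.

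For Cfp the estimated length went the other way. It was 1636 bases in both monocyte libraries, the length of its coding transcript, and 1265 and 1331 bases in neutrophils, where RSEM gave part of the abundance to a noncoding transcript of 401 bases. With the length offset its log2 fold change was -1.91 (edgeR adjusted p = 0.00175, and from 3.91e-08 to 0.0144 over all alternatives). The offset moved the other called members little, to -3.40 for Cd55 and -1.34 for Cd93, which has 1 annotated transcript of 6677 bases. These lengths are RSEM estimates from short reads of libraries that also keep unspliced RNA.

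**Figure D2:**
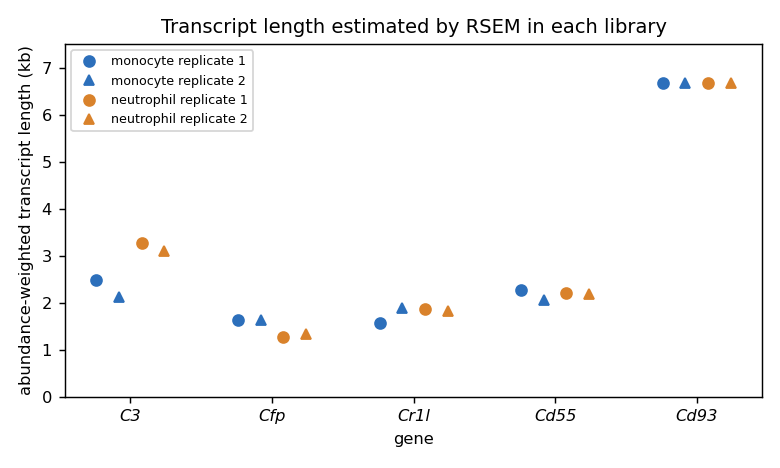
Mean transcript length in kilobases, weighted by the abundance RSEM estimated, for the 5 of the 8 complement genes with the most reads in each library (blue, monocyte; orange, neutrophil; a symbol for each replicate). C3 was read as longer transcripts in neutrophils (3099 and 3264.5 bases) than in monocytes (2127 and 2478 bases), Cfp as shorter ones, and Cd93 has a single length.

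Cfb encodes factor B, the serine protease of the alternative route convertase. It was near the floor, with 19 and 26 counts in monocytes and 11 and 15 in neutrophils, or 0.729 and 1.02 against 0.508 and 0.730 CPM. The groups overlapped and the log2 fold change was 0.49 ± 0.88 (SE; edgeR adjusted p = 0.696). Cfb (chromosome 17, 34856374 to 34862518, reverse strand) shares 6107 bases with the gene model Gm20547 on the same strand, which was listed at 0 counts in all libraries. The coefficient of variation of its read assignment ran from 2.88% to 14.9%, so its counts are uncertain. C2, the homologous protease of the classical route 85 bases away, had 1 count in all. Messages of the alternative route were thus unequal, with C3 and Cfp well above the floor, Cfb close to it, and Cfd, which encodes the factor D protease that cleaves factor B, at 0 counts in each library.

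Cd93 encodes a transmembrane glycoprotein with a C-type lectin-like domain, known from myeloid cells, endothelium and early progenitors and once taken for a receptor of C1q. It was read at 14.0 and 16.9 CPM in monocytes and at 39.8 and 38.5 CPM in neutrophils. Both neutrophil libraries lay above both monocyte libraries. The means of 15.4 ± 2.09 and 39.1 ± 0.92 CPM (SD, n = 2 each) differed 2.54-fold, with a log2 fold change of -1.34 ± 0.16 (SE; edgeR adjusted p = 0.00189). On the log2(TPM + 1) scale, which understates changes of low genes, it was -0.60 (limma adjusted p = 0.0236, the highest over all alternatives, of which the lowest was 1.36e-07 with DESeq2). Cd93 is on the reverse strand of chromosome 2 (148436640 to 148443563).

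Levels of different genes can be set side by side only per length. In CPM per kb of effective length, the order in monocytes was Cr1l (109.8 and 106), C3 (57.6 and 66.7), Cd55 (34.7 and 39.0), Cfp (6.64 and 6.88), Cd93 (2.15 and 2.60), and then Cd59a (0.658 and 1.77) and Cfb (0.528 and 1.26), whose ranges overlapped. In neutrophils Cd55 came first (412 and 366), before Cr1l (94.3 and 91.4), C3 (64.3 and 64.7), Cfp (25.0 and 25.8) and Cd93 (6.11 and 5.91). Cd59a (0.240 and 0.572) and Cfb (0.242 and 0.375) overlapped again at the bottom. Apart from Cd59a and Cfb, neighbors in each order did not overlap. The orders differed in the place of Cd55, below Cr1l and C3 in monocytes and above both in neutrophils. Among 11903 tested coding genes ranked by this level, Cd55 stood at 2207 in monocytes and at 119 in neutrophils, whereas Cr1l stood at 674 and 675 and C3 at 1260 and 1040. Cfp moved from 6717 to 2857, and Cd93 from 8959 to 7053.

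Summed over the 8 genes, the level was 212 and 225 CPM per kb in monocytes and 603 and 555 in neutrophils. Cd55 made up 16.3% and 17.4% of that sum in monocytes and 68.4% and 66.0% in neutrophils. The share of Cr1l was 51.8% and 47.4% in monocytes and 15.7% and 16.5% in neutrophils. Its own level was 109.8 and 106 against 94.3 and 91.4 CPM per kb, so per length its groups did not overlap. With the effective length as an offset its log2 fold change was 0.22 (edgeR adjusted p = 0.143). C3 made up 27.2% and 29.7% against 10.7% and 11.7%.

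**Figure D3:**
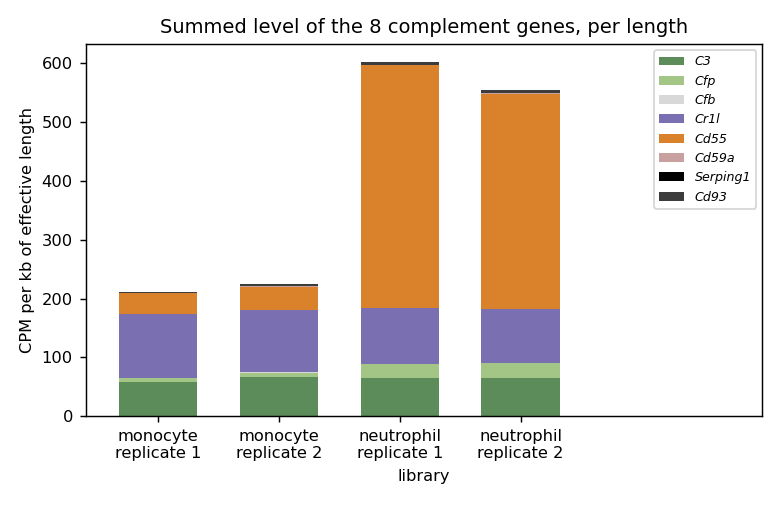
Summed level of the 8 complement genes in each library, in CPM per kb of effective length, with each gene as a segment of the bar and the axis starting at 0. The neutrophil bars reach 603 and 555 against 212 and 225 in monocytes, and most of the gap is the Cd55 segment.

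The sequence before the start of 5 of the 8 genes was given by RefSeq on GRCm38.p6, the assembly also called mm10, and Cfb, Serping1 and Cd93 had no entry. The 250 bases upstream are shown for the called genes Cd55, Cfp and C3, and for Cr1l as the gene of similar level that was not called, to show how unlike these promoters are. Each runs 5′ to 3′ toward the gene, on the reverse strand for all 4, with CG pairs in capitals. They are chr1:130462745-130462994 for Cd55, chrX:20931556-20931805 for Cfp, chr17:57228137-57228386 for C3 and chr1:195131571-195131820 for Cr1l.
Cd55: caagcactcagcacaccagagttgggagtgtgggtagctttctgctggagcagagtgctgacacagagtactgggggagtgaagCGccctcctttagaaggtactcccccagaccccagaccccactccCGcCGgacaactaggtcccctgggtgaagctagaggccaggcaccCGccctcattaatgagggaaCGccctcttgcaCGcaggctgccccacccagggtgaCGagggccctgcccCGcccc
Cfp: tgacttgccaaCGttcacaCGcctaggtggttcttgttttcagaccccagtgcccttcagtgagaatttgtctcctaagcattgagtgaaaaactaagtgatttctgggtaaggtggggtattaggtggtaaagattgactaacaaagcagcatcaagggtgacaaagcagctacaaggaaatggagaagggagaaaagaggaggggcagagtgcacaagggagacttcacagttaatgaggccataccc
C3: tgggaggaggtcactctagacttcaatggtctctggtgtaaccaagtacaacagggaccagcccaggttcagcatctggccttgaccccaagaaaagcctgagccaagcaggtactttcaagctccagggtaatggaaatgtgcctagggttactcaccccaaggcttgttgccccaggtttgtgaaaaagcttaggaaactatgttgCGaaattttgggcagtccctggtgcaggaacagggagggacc
Cr1l: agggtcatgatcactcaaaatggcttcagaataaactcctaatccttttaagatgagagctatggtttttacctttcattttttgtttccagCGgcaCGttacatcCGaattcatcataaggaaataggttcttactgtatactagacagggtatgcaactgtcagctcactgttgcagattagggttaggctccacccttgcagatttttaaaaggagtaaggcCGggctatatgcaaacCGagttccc
The Cd55 window held 8 CG pairs at a GC content of 64%, against 2 and 46.8% for Cfp, 1 and 52% for C3 and 5 and 41.6% for Cr1l. The Cd59a window (chr2:104095551-104095800, forward strand), not shown, held no CG pair at 44.8% GC. Over all 32851 windows of the table the median was 6 CG pairs and the mean GC content 53.2%. The Cd55 window thus held more CG pairs than the median window, and the Cfp, C3, Cr1l and Cd59a windows fewer. These motifs were searched on both strands: the kappaB core GGNNTTTCC, found in 4.93% of all windows, the GAS motif TTCNNNGAA in 7.02%, the ISRE core GAAANNGAA in 7.13%, and the PU.1 core GAGGAAGT in 2.44%. Among the 5 members the search matched only the ISRE core in Cd59a, as GAAAGGGAA, 187 to 179 bases upstream. The letters of the other motifs are not in these windows, which says nothing about the factors.

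Of 50 other complement genes listed by role, 15 passed the filter on low counts, and 4 were higher in monocytes, 6 higher in neutrophils and 5 not called by edgeR, with a median log2 fold change of -0.011. The shares over all genes tested were 20.8% higher in monocytes and 21.8% higher in neutrophils. Of the other 35, 19 had 0 counts in every library. The classical and lectin components were largely at or near 0: of 19 genes 5 were tested and 8 had no counts at all. C1qa had 3 counts in all, C1qc had 1 and C1qb none, and these encode the chains of C1q, a known product of tissue macrophages. In this group C1rl was called, higher in neutrophils (7 and 6 against 45 and 56 counts; log2 fold change -3.23 ± 0.84 SE, edgeR adjusted p = 0.0270), a call lost without either neutrophil library. None of the 7 genes of the terminal pore passed the filter, and Hc, which encodes C5, had 3 and 0 counts in monocytes and 0 and 2 in neutrophils. C1ra, C4a, C4b and Masp2 were not called. C4a (93 and 33 against 17.5 and 19.5 counts) and C4b are near-identical copies between which reads may be split, so each is uncertain, and C4a was called higher in monocytes without monocyte replicate 2 (1.97) and with limma. C1ra, which has a near copy in C1rb, rested on monocyte replicate 1 (47 and 0 against 15 and 7 counts), without which it was called higher in neutrophils (edgeR adjusted p = 0.0346).

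Values of other regulators are given for comparison with Cd55 and Cr1l. Clu, which encodes clusterin, a binder of the pore complex, was higher in neutrophils (2.43 ± 0.56 against 10.1 ± 0.57 CPM, SD, n = 2 each; log2 fold change -2.05 ± 0.36 SE, edgeR adjusted p = 0.00724), a call lost without either neutrophil library. Cd46, the membrane cofactor gene beside Cr1l, was not called (1.80 and 3.29 against 6.01 and 4.82 CPM; log2 fold change -1.09 ± 0.50 SE, edgeR adjusted p = 0.139), except without monocyte replicate 2 (-1.59), and it overlaps other genes. Cfi, the gene of the factor I protease that such cofactors serve, had no counts.

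Among the 8 receptor genes, the 7 tested were all called, 4 higher in monocytes and 3 in neutrophils. Over all genes tested 42.6% were called, and this list was chosen with earlier results of these data known. Vsig4, a receptor gene of resident macrophages, was at 0. The receptor for the C3a fragment, C3ar1, was read at 18.2 and 24.9 CPM in monocytes against 2.5 and 2.19 in neutrophils (log2 fold change 3.20 ± 0.29 SE, edgeR adjusted p = 0.000674). The C5a receptors went the other way. C5ar1 was read at 17.6 and 11.6 CPM against 120.1 and 107 (log2 fold change -2.96), and C5ar2 at 11.8 and 10.3 against 96.8 and 94.6 (-3.12). Cr2, which in mouse encodes the receptors for bound C3 fragments known from B cells and follicular dendritic cells, stood at 18.8 and 31.6 CPM in monocytes and 266 and 228 in neutrophils. Its log2 fold change was -3.29 ± 0.26 (SE; edgeR adjusted p = 0.000447), next to Cr1l at 0.10 on the same stretch of chromosome 1. The 7 B cell markers moved with Cr2, and their part in its result was not tested. The integrin genes of the C3 fragment receptors were higher in monocytes, at 0.57 for Itgam, 2.30 for Itgax and 1.29 for Itgb2 on the log2 scale. Itgam and Itgb2 encode Mac-1, on which the monocytes were sorted and the neutrophils were not. Their difference cannot be told apart from the isolation and is no independent result. The 7 NK cell markers were higher in monocytes too, and their part in the integrin results was not tested. The call of Itgam was lost with limma on log2(TPM + 1) (0.36).

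**Figure D4:**
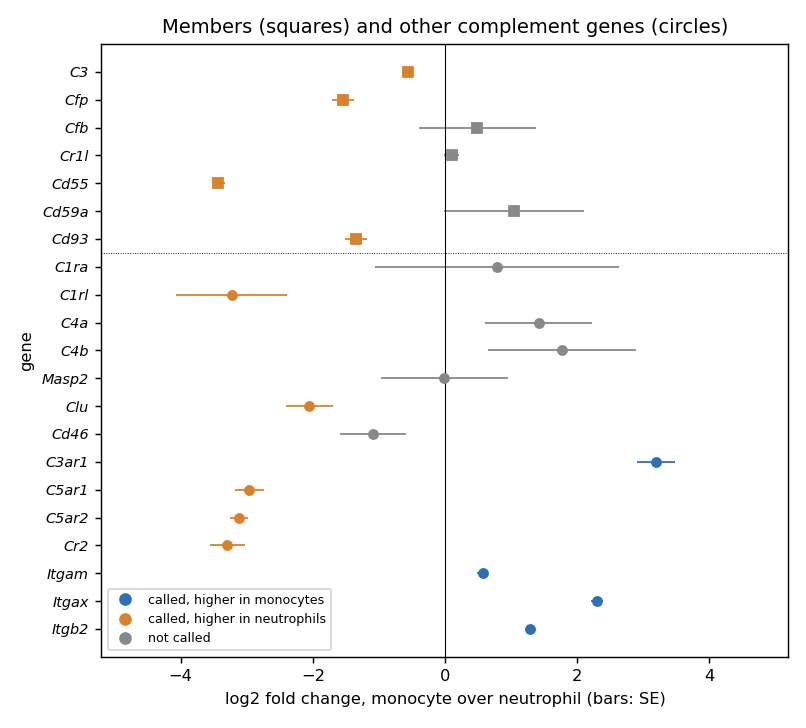
Log2 fold change, monocyte over neutrophil, with its SE, for the 7 tested members (squares, above the dotted line) and 14 of the 15 other tested complement genes (circles), colored by edgeR call. Cd55b is left out because it had 0 counts in both monocyte libraries. The called members lie on the neutrophil side, from -0.56 for C3 to -3.43 for Cd55, whereas the other genes lie on both sides, with C3ar1 at 3.20.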

How the data were processed

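Total RNA of 2 monocyte and 2 neutrophil libraries was compared, with groups from the labels and replicate numbers in deposit order only. Per the labels, RNA was depleted of ribosomal RNA, made into libraries with tagged random hexamers and amplified by PCR without molecular identifiers, so counting floors cover counting error only. The authors aligned reads to mm10 with STAR and quantified genes with RSEM, after bcl2fastq, and deposited expected counts, which share reads among the genes they match, TPM, and RSEM's posterior counts and lengths. The deposited TPM served only as an alternative.

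Each table held 69690 entries, of which 43346 are Ensembl genes (98.0% matched to GENCODE M21 for names and coordinates). The other 26344 entries held at most 0.000594% of a library's counts and were left out. Genes were kept by filterByExpr, and rounded expected counts were tested with edgeR 4.0.16 (R 4.3.3) by the quasi-likelihood F test with TMM (factors 0.9936 to 1.0055), all 4 libraries and cell type as the only term. The SE was taken from the log2 fold change and its F value. CPM used the library total, and CPM per kb the effective length. The libraries of a group differed by more than counting error (chi-square per degree of freedom 42.2 for monocytes and 24.65 for neutrophils, over genes with at least 10 counts), and the biological coefficient of variation fitted within the group was 45.6% and 14.7%, so none was a repeat deposit. The test was also run on simulated counts with the same spread in both groups. The groups here differ in spread, so that run does not show how the test behaves on them.

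Alternatives were DESeq2 size factors, library totals alone, no filter, the DESeq2 1.42.0 test, limma 3.58.1 on log2(TPM + 1), an effective length offset, and each library left out. All 8 members are named. The other complement genes were listed by role, and only part of them are named or given with their values. A listed gene is not reported here and stands in no count of listed genes. The members and lists were chosen with earlier results of these data known.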

Additional observations from a re-analysis of the deposited data

How the results depend on the processing

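Under 10 alternatives, the calls and directions of Cd55, Cfp and Cd93 held throughout. The members called higher in neutrophils numbered 4, and 3 with limma on log2(TPM + 1) and with the effective length offset, where C3 was lost. Leaving out 1 library at a time gave 0 to 1 members higher in monocytes (Cr1l, without monocyte replicate 1), 3 to 7 other complement genes higher in neutrophils, and 1850 to 3821 genes higher in monocytes and 1568 to 4576 higher in neutrophils of all tested. The lowest of these counts over all genes came without a neutrophil library. In those fits the lone library is assumed to vary like the monocyte pair. The biological coefficient of variation was 45.6% within monocytes and 14.7% within neutrophils, and its part in the counts was not tested.

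Log2 fold changes that turned were Cr1l (-0.039 without monocyte replicate 2, up to 0.23 without monocyte replicate 1), Masp2 (from -0.39 without neutrophil replicate 2 to 0.51 without neutrophil replicate 1, and 0.28 without monocyte replicate 2) and C1ra (from -6.56 without monocyte replicate 1, a fitted value against 0 counts, to 1.78 without monocyte replicate 2). Without either neutrophil library the calls of C1rl, Clu and Cd55b were lost. C4a was called with limma (0.53) and without monocyte replicate 2 (1.97), and Cd46 without monocyte replicate 2 (-1.59). No paired analysis was possible because replicate numbers follow deposit order and no label ties a monocyte library to a neutrophil library. Counting depth limits Cfb, Cd59a and Serping1.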
